A study of Homo sapiens with 6 samples.

Results

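The G2/M and mitosis genes are 56 genes that carry a cell from the end of G2 through chromosome segregation and cytokinesis. They were chosen by symbol, as a list of known mitotic regulators, and matched by Ensembl identifier to the deposited table, in which all 56 of them were found among 57773 genes. All 56 passed the filter on low values (a mean RPKM of 0.5 or more in the 6 libraries, met by 15451 genes). RPKM is the number of reads on a gene, scaled to the length of the gene and to the library total.

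H460 is an established line of human epithelial cells from a large cell lung carcinoma. Cultures were exposed to 50 nM of siRNA for 48 hours, and polyA RNA was then sequenced in 6 libraries. The 3 control libraries (siNT) received a non-targeting siRNA, and the 3 siHKlincR1 libraries received an siRNA against the long intergenic noncoding RNA HKlincR1 (AC093323.3). The comparison asks how expression moves when HKlincR1 is depleted, and the samples are described by their submitters as biological replicates. All libraries come from 1 cell line, and the knockdown libraries from 1 siRNA, so that effects of the lincRNA and of the siRNA itself cannot be told apart.

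Entry into mitosis is driven by the kinase CDK1 bound to cyclin B. The spindle checkpoint then holds the cell until every kinetochore is attached to microtubules, after which the anaphase-promoting complex, activated by CDC20, marks securin and cyclin B for destruction. The mRNAs of most of these proteins are made in G2 and are low in G1, and in RNA from a mixed culture they are known as markers of dividing cells.

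The library totals worked back from the RPKM values were 24980280 to 30521000 reads, and each of the 56 genes had between 364 and 13971 reads in every library. The epithelial keratins KRT8, KRT18 and KRT19 were high in all libraries, at 28.1 to 88.5 RPKM, whereas the epithelial adhesion genes EPCAM and CDH1 were at or near 0 (means under 0.5 RPKM). Of 6 markers of blood, endothelial and stromal cells, 5 averaged under 0.5 RPKM. Their summed level was 1.12 to 1.36 RPKM with siNT and 0.606 to 0.915 RPKM with siHKlincR1. The collagen gene COL1A1 made up most of the sum, at 0.998 to 1.23 RPKM and 0.419 to 0.773 RPKM, and the part of these markers in the results was not tested. None of the 6 was at 0 in every library, although CD3E, VWF and DCN had no more than a single read in any of them.

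HKlincR1 lies on chromosome 4 of GRCh37 (chr4:6665123-6678482, plus strand). It was at 3.62, 3.47 and 3.83 RPKM in siNT replicates 1, 2 and 3 and at 0.563, 0.628 and 0.390 RPKM in siHKlincR1 replicates 1, 2 and 3. The groups did not overlap, and the log2 fold change was -2.59 (SE 0.17, limma adjusted p = 0.00245 over all genes tested). The siRNA is shown here because its guide is also set against the 3′ UTRs of the mitosis genes below. The capitals in the guide mark its seed, bases 2 to 8 from the 5′ end, and the target is the exonic stretch chr4:6677040-6677058 on the plus strand, in the annotated 3′ UTR of the HKlincR1 transcript ENST00000635031. The annotation used thus marks a coding sequence in this transcript, and the study mentions some evidence of a potentially coding transcript at the locus.

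siHKlincR1_2 guide: aAGCACACgaguauacuuc

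siHKlincR1_2 target: gaagtatactcgtgtgctt

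The mitosis genes were lower in some of the knockdown libraries and not in others. Relative to the siNT mean, the median of the 56 genes was -0.16, -0.44 and 0.02 on the log2 scale in siHKlincR1 replicates 1, 2 and 3, and -0.02, 0.01 and -0.01 in the siNT replicates. At the median gene, replicate 1 stood at 89.6% of the siNT mean, replicate 2 at 73.6% and replicate 3 at 101%. Over all 15451 genes tested, the corresponding medians lay between -0.00433 and 0.0107 in every library. In these bulk samples, fewer cells in G2 and mitosis cannot be told apart from less of these mRNAs per cell.

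Replicate 2 was below all siNT libraries for 53 of the 56 genes (36.6% of all genes tested) and above all of them for 0 genes (34.4% of all genes). Replicate 1 was below all siNT libraries for 35 genes (32.7% of all genes) and above them for 8 (34.3% of all genes). Replicate 3 was below them for 15 genes (27.2% of all genes) and above them for 14 (25.5% of all genes), shares close to the background. Replicate 2 was the lowest of all 6 libraries for 52 of the 56 genes, against 25.7% of all genes tested. The 3 knockdown libraries stood in 1 order, replicate 2 lowest and replicate 3 highest, for 49 of the 56 genes, against 25.8% of all genes tested. That order is the order of the medians of these same genes, so the count describes them and is no test. Between replicates 2 and 3 the level of the median gene differed 1.41-fold.

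HKlincR1 was at 0.563, 0.628 and 0.390 RPKM (37, 42 and 27 reads) in siHKlincR1 replicates 1, 2 and 3, and the depth was 28457706, 28922217 and 29926414 reads. The part of either in the order of the knockdown libraries was not tested. The median coefficient of variation of the 56 genes was 5.18% among siNT libraries and 17.7% among siHKlincR1 libraries, and the median range was 0.15 and 0.49 on the log2 scale. Over all genes tested the median range was 0.22 and 0.28. Set against the siNT library of the same number, 42, 55 and 26 of the 56 genes were lower in pairs 1, 2 and 3, with median log2 differences of -0.14, -0.48 and 0.01.

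**Figure D1:**
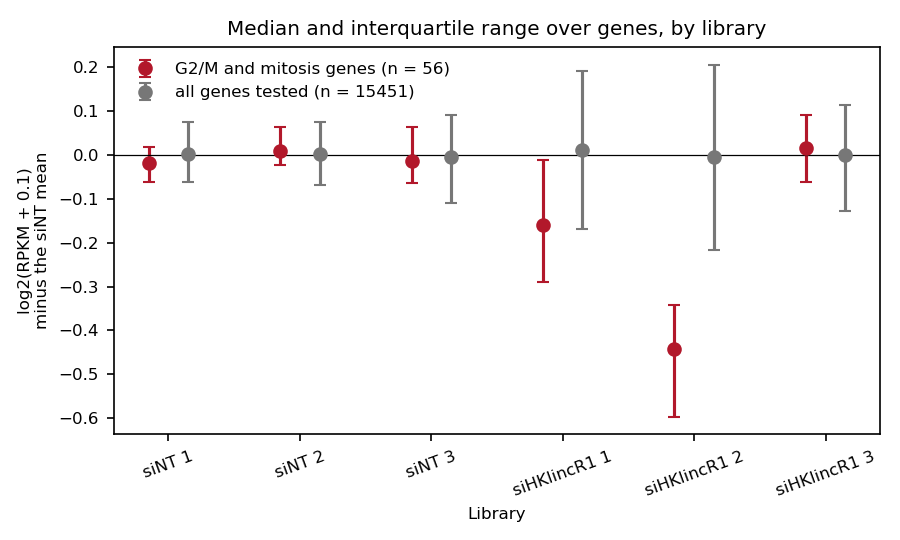
Median (point) and interquartile range (bar) over genes of log2(RPKM + 0.1) minus the siNT mean in each of the 6 libraries, for the 56 G2/M and mitosis genes and for all 15451 genes tested. The medians of the mitosis genes were -0.16, -0.44 and 0.02 in siHKlincR1 1, 2 and 3, while those of all genes stayed near 0.

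In the comparison of the groups, 49 of the 56 genes had a log2 fold change below 0 (49.8% of all genes tested) and 7 above 0 (50.2%), and the median was -0.20 against 0.00 over all genes. None of the 56 was called lower (0.356% of all genes tested) or higher (0.00647% of all genes) by limma at an adjusted p under 0.05 with a fold change above 1.5. At an unadjusted p under 0.05, 10 were lower (9.19% of all genes) and 0 were higher (7.04%). The knockdown libraries were all below the siNT libraries for 14 genes (11.9% of all genes) and all above them for 0 genes (10.1%). With a replicate block in limma, 1 gene, DEPDC1, was called lower (0.809% of all genes), and 2, DEPDC1 and FOXM1, had an adjusted p under 0.05 (1.72%). With limma voom on the reads worked back, DEPDC1 was the 1 gene called (0.563%). The same held with voom and the block (1.71%) and with limma at a filter of 1 RPKM (0.425%). In the voom fit with the block, FOXM1, SPC25, NCAPH, HMGB2, GTSE1, PLK1, BIRC5, PRC1, BUB1B and CDCA3 also had an adjusted p under 0.05. Their fold changes were under the threshold. The limma voom adjusted p ran from 0.00469 (FOXM1) to 0.0489 (CDCA3), and the share of all genes at that limit is not given here.

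The group comparison depended on replicates 2 and 3 of the knockdown. Without replicate 3, the median log2 fold change was -0.30 and 5 of the 56 genes were called lower by limma (2.03% of all genes). They were FOXM1, SPC25, GTSE1, ANLN and DEPDC1. Another 5 passed an adjusted p under 0.05 at a smaller fold change, namely CDK1, BUB1B, BIRC5, NCAPH and PRC1, which makes 10 in all (4.56% of all genes). Without replicate 2 the median was -0.08 and 0 were called. These fits leave out a library known to stand at an end of the order, and are given as a measure of how far 1 library moves the result.

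**Figure D2:**
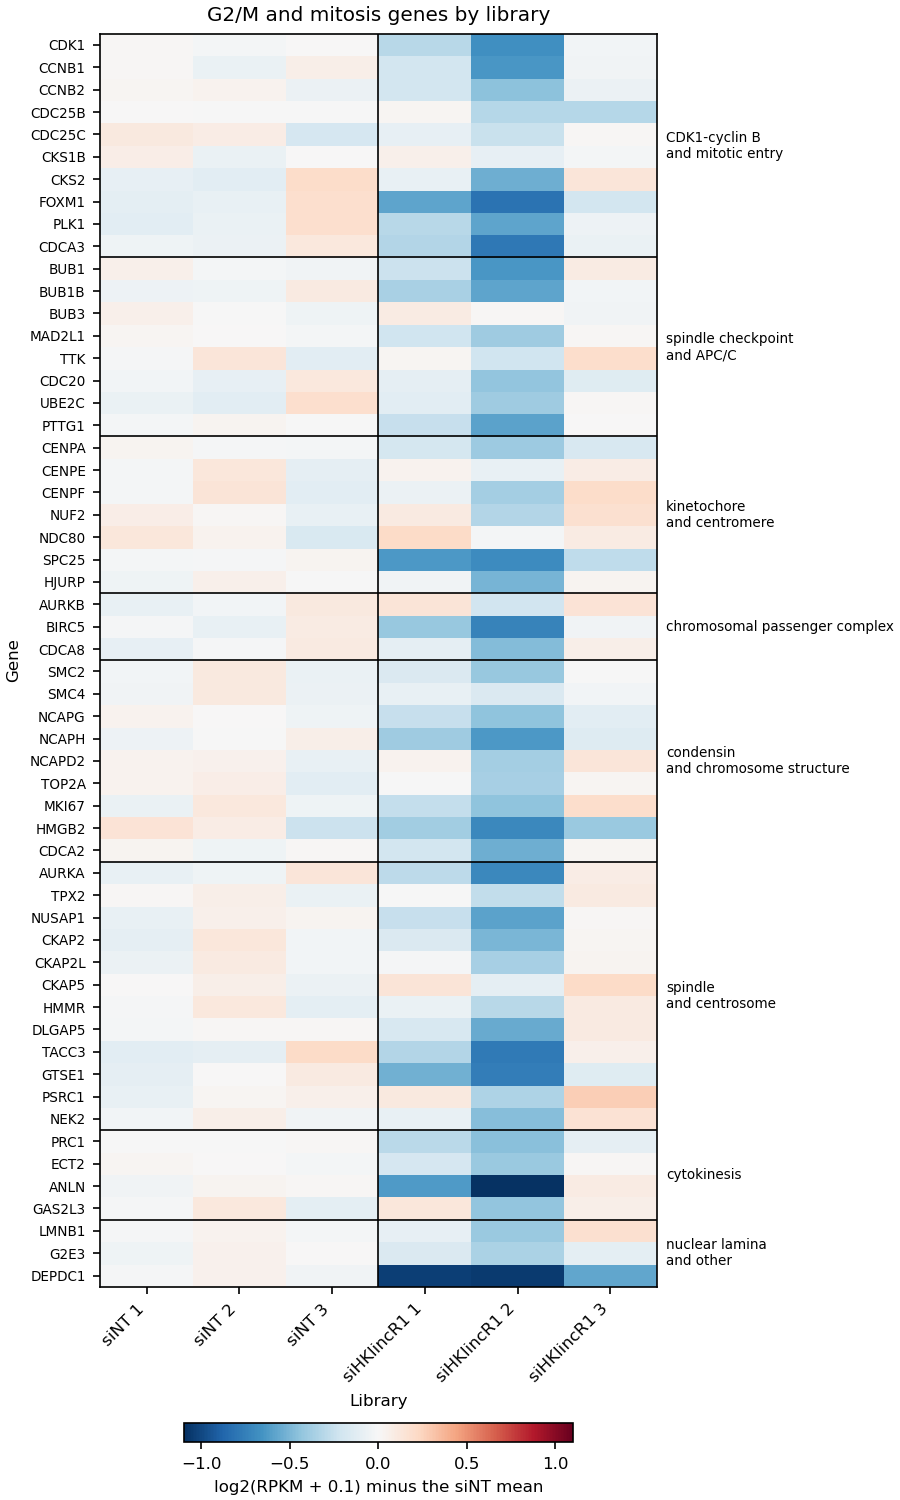
Heat map of log2(RPKM + 0.1) minus the siNT mean for each of the 56 genes (rows, grouped by function) in each library (columns), blue for lower and red for higher. The column of siHKlincR1 2 is blue for 55 of 56 genes, that of siHKlincR1 1 is paler, and that of siHKlincR1 3 is mixed, with DEPDC1 the lowest there at -0.57.

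The 10 genes of CDK1-cyclin B and mitotic entry all had a log2 fold change below 0, with a median of -0.27. CDK1, the kinase that starts mitosis, was at 37.4, 36.6 and 37.3 RPKM in siNT replicates 1 to 3 and at 30.0, 23.2 and 36.3 RPKM in siHKlincR1 replicates 1 to 3. Its B-type cyclin partner CCNB1 was at 74.2, 70.2 and 77.0 RPKM with siNT and 64.0, 47.3 and 71.7 RPKM with siHKlincR1. CCNB2, another B-type cyclin, was at 54.1, 54.8 and 50.9 RPKM against 46.2, 39.0 and 50.9 RPKM. In all of these genes replicate 2 was lowest and replicate 3 was closest to the controls. The groups did not overlap for CDK1 and CCNB2, although replicate 3 came next to the lowest control. The log2 fold changes were -0.34 for CDK1 (95% interval -0.69 to 0.01), -0.30 for CCNB1 (-0.64 to 0.05) and -0.24 for CCNB2 (-0.48 to 0.00), and the limma adjusted p was 0.319, 0.356 and 0.309.

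FOXM1, a transcription factor that activates G2/M genes, was at 27.3, 27.9 and 33.6 RPKM with siNT and 19.6, 16.8 and 25.6 RPKM with siHKlincR1. All knockdown libraries were below all control libraries. The log2 fold change was -0.53 (SE 0.16), with a limma adjusted p of 0.223, and of 0.0444 with the replicate block, at a fold change under the threshold. The mitotic kinase PLK1 was at 26.9, 27.8 and 33.2 RPKM and 23.6, 19.4 and 28.0 RPKM, where replicate 3 overlapped the controls (log2 fold change -0.32). CDCA3, part of a ubiquitin ligase that degrades the CDK1 inhibitor WEE1, was the lowest of the 56 genes in level, at 4.56, 4.49 and 5.09 RPKM with siNT and 3.74, 2.69 and 4.47 RPKM with siHKlincR1 (log2 fold change -0.39). Its groups did not overlap, with replicate 3 next to the lowest control. Of the other entry genes, the phosphatases CDC25B and CDC25C had log2 fold changes of -0.20 and -0.11, and the CDK-binding proteins CKS2 and CKS1B of -0.16 and -0.02.

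The spindle checkpoint and anaphase-promoting complex genes were 6 below and 2 above 0 of 8, with a median of -0.21. The checkpoint component BUB1B was at 26.0, 26.2 and 29.1 RPKM with siNT and 21.1, 18.0 and 26.5 RPKM with siHKlincR1, a log2 fold change of -0.32 (-0.65 to 0.00, limma adjusted p = 0.309). PTTG1, the securin that holds separase inactive, was at 60.7, 62.8 and 61.2 RPKM against 51.6, 41.0 and 61.8 RPKM, with replicate 3 among the controls (log2 fold change -0.28). The checkpoint kinase TTK was at 9.25, 10.2 and 8.59 RPKM with siNT and 9.46, 8.01 and 10.7 RPKM with siHKlincR1, and its knockdown libraries lay on both sides of the controls (95% interval of the log2 fold change -0.28 to 0.28). BUB3, which binds BUB1 and BUB1B at kinetochores, had 54.2, 52.0 and 50.4 RPKM with siNT and 55.5, 52.5 and 50.7 RPKM with siHKlincR1, a log2 fold change of 0.02 (-0.13 to 0.17). BUB3 was also the 1 gene whose level in replicate 2 was above its siNT mean. The remaining checkpoint and ubiquitination genes, BUB1, MAD2L1, CDC20 and UBE2C, had log2 fold changes of -0.26, -0.20, -0.22 and -0.16.

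Among the 7 kinetochore and centromere genes, the median was -0.08 and 5 were below 0. SPC25, a subunit of the NDC80 complex that binds microtubules, was at 11.0, 11.0 and 11.4 RPKM with siNT and 7.16, 6.84 and 9.17 RPKM with siHKlincR1. All knockdown libraries were lower, and the log2 fold change was -0.53 (SE 0.11, limma adjusted p = 0.129, and 0.0527 with the replicate block). NUF2 and NDC80, subunits of the same complex, were closer to their controls. NUF2 had a log2 fold change of -0.02 (-0.33 to 0.30). NDC80 was at 6.99, 6.55 and 5.68 RPKM with siNT and 7.41, 6.29 and 6.80 RPKM with siHKlincR1, a log2 fold change of 0.09 (-0.15 to 0.34). The groups overlapped, and the difference between the subunits was not tested.

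CENPA, the histone variant that marks centromeres, was at 12.7, 12.3 and 12.2 RPKM with siNT and 10.8, 9.36 and 11.0 RPKM with siHKlincR1, without overlap (log2 fold change -0.26, limma adjusted p = 0.231). HJURP, the chaperone that loads CENPA, had a log2 fold change of -0.17. CENPF, a large protein of the outer kinetochore, was at 21.6, 24.3 and 20.3 RPKM against 21.0, 16.9 and 25.4 RPKM, and its replicate 3 was above every control (log2 fold change -0.08, -0.43 to 0.27). The kinetochore motor CENPE was at 10.3, 11.4 and 9.76 RPKM with siNT and 10.7, 9.89 and 11.0 RPKM with siHKlincR1, all 3 within the range of the controls.

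The chromosomal passenger complex corrects faulty attachments and steers cytokinesis, and 3 of its subunits were among the 56 genes. The kinase subunit AURKB was at 29.9, 30.9 and 34.1 RPKM with siNT and 34.9, 27.3 and 35.0 RPKM with siHKlincR1, where replicates 1 and 3 were above every control and replicate 2 below (log2 fold change 0.03, -0.24 to 0.29). BIRC5, or survivin, was at 47.0, 44.9 and 50.5 RPKM with siNT and 35.5, 28.5 and 46.2 RPKM with siHKlincR1 (log2 fold change -0.39, limma adjusted p = 0.303). CDCA8, or borealin, was at 18.1, 19.1 and 20.6 RPKM against 18.0, 13.8 and 20.1 RPKM (log2 fold change -0.17). Both overlapped the controls through replicate 3.

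All 9 genes of condensin and chromosome structure had a log2 fold change below 0, with a median of -0.19. HMGB2, an abundant chromatin protein that bends DNA, was at 29.1, 27.7 and 22.3 RPKM with siNT and 20.1, 16.0 and 19.8 RPKM with siHKlincR1. Unlike in most of the 56 genes, replicate 3 was not above replicate 1, and the groups did not overlap (log2 fold change -0.50, SE 0.13, limma adjusted p = 0.182). NCAPH, the kleisin of condensin I, was at 26.8, 27.8 and 29.3 RPKM with siNT and 21.2, 18.0 and 25.3 RPKM with siHKlincR1 (log2 fold change -0.39, limma adjusted p = 0.230). NCAPG, another condensin I subunit, was at 15.6, 15.2 and 14.6 RPKM against 12.7, 11.1 and 14.0 RPKM (log2 fold change -0.27, limma adjusted p = 0.258). Both were lower in every knockdown library than in any control.

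The other condensin subunits SMC2, SMC4 and NCAPD2 had log2 fold changes of -0.19, -0.09 and -0.07. TOP2A, the topoisomerase that untangles sister chromatids, was at 69.4, 71.1 and 62.1 RPKM with siNT and 67.2, 52.3 and 68.5 RPKM with siHKlincR1, and only replicate 2 was below the controls (log2 fold change -0.12, -0.39 to 0.16). MKI67, the proliferation marker Ki-67 that coats mitotic chromosomes, was at 28.5, 32.6 and 29.0 RPKM with siNT and 25.0, 22.1 and 34.3 RPKM with siHKlincR1. Its replicate 3 was above every control and its replicates 1 and 2 were below every control (log2 fold change -0.17, -0.54 to 0.20). CDCA2, which brings the phosphatase PP1 to chromatin, had a log2 fold change of -0.24.

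Of 12 spindle and centrosome genes, 10 were below 0, and the median was -0.17. GTSE1, a microtubule-associated regulator of p53, was at 9.06, 9.75 and 10.4 RPKM with siNT and 6.73, 5.70 and 8.86 RPKM with siHKlincR1, without overlap (log2 fold change -0.47, limma adjusted p = 0.244). TACC3, which cross-links spindle microtubules, was at 19.0, 19.3 and 24.0 RPKM against 16.5, 12.0 and 21.5 RPKM (log2 fold change -0.35, -0.83 to 0.14). The spindle pole kinase AURKA was at 33.3, 34.1 and 38.6 RPKM with siNT and 28.8, 21.5 and 37.4 RPKM with siHKlincR1, a log2 fold change of -0.30 (-0.74 to 0.14). For TACC3 and AURKA the highest siNT library was replicate 3, as it was for FOXM1 and PLK1, and replicate 3 of the knockdown overlapped the controls.

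CKAP5, a microtubule polymerase, was at 27.8, 29.0 and 26.5 RPKM with siNT and 30.7, 25.8 and 32.2 RPKM with siHKlincR1, a log2 fold change of 0.09 (-0.14 to 0.31). The microtubule-binding protein PSRC1 was at 8.04, 8.62 and 8.83 RPKM against 9.13, 6.70 and 10.3 RPKM. In both genes replicates 1 and 3 were above every control and replicate 2 was below. The other 7 spindle genes had log2 fold changes between -0.28 (NUSAP1, which stabilises spindle microtubules) and -0.06 (TPX2, the activator of AURKA).

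The 4 cytokinesis genes were all below 0, with a median of -0.24. ANLN, or anillin, the scaffold of the contractile ring, was at 53.2, 55.95 and 55.2 RPKM with siNT and 35.6, 25.8 and 58.3 RPKM with siHKlincR1. It showed the widest range of the 56 genes among the knockdown libraries on the log2 scale. Replicate 2 stood at a log2 difference of -1.08 from the siNT mean and replicate 3 was above every control. The log2 fold change was -0.54 (-1.16 to 0.08, limma adjusted p = 0.347), and -0.85 without replicate 3. PRC1, which bundles the microtubules of the central spindle, was at 40.1, 40.0 and 40.5 RPKM with siNT and 32.7, 29.2 and 37.5 RPKM with siHKlincR1, without overlap (log2 fold change -0.29, limma adjusted p = 0.243). ECT2, the exchange factor that activates RHOA at the division plane, and the cytoskeletal linker GAS2L3 had log2 fold changes of -0.19 and -0.08.

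**Figure D3:**
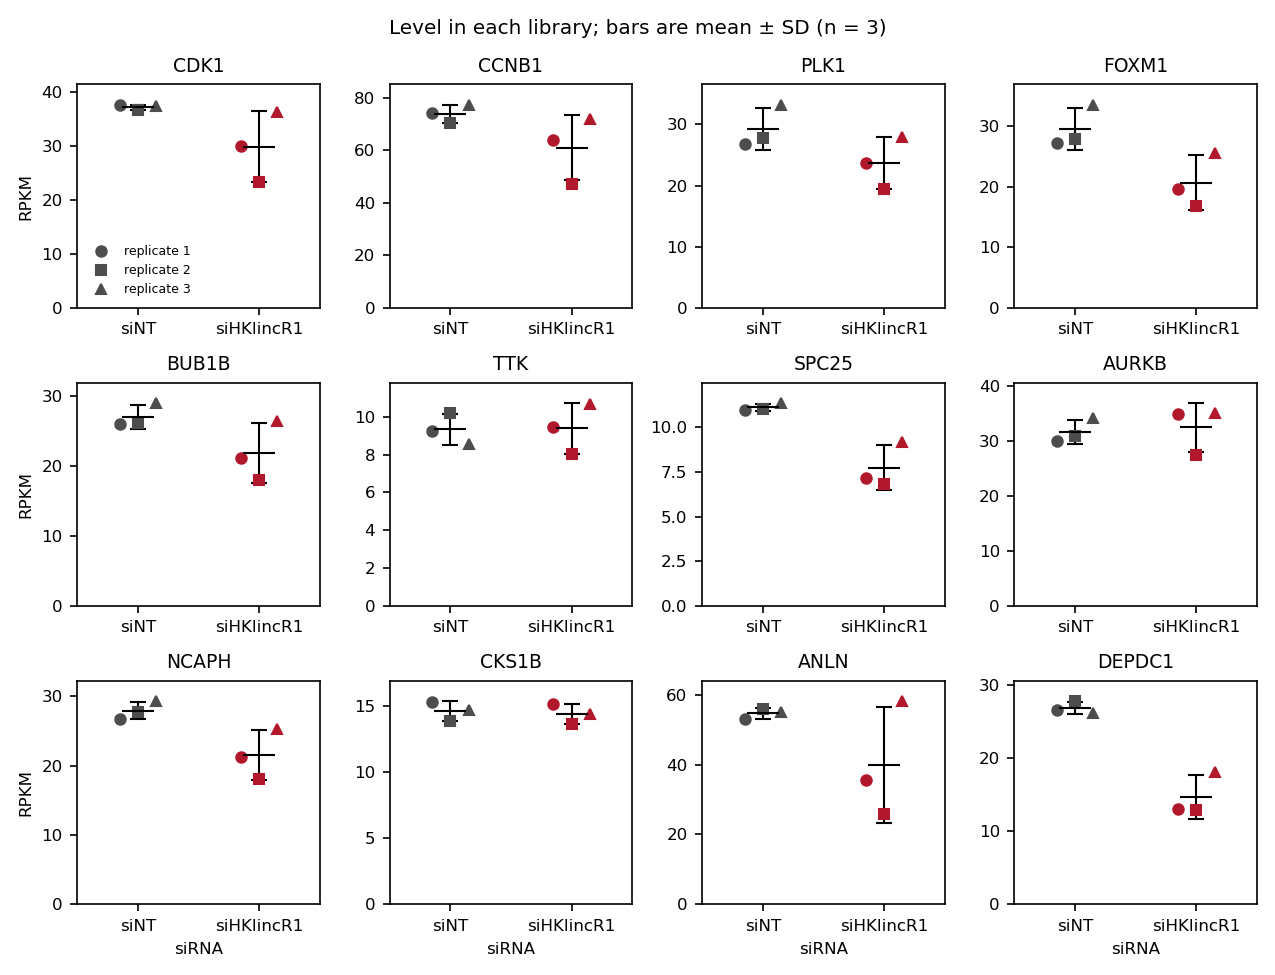
Level in RPKM of 12 of the genes in each library (symbols give the replicate number), with mean ± SD (n = 3) for siNT and siHKlincR1. The square of siHKlincR1 2 is lowest for each of the 12, and the triangle of siHKlincR1 3 is the highest knockdown value for each except CKS1B.

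DEPDC1 had the largest log2 fold change of the 56 genes. It encodes a DEP domain protein that is known from bladder cancer. It was at 26.6, 27.8 and 26.2 RPKM with siNT and at 13.0, 12.9 and 18.1 RPKM with siHKlincR1. Every knockdown library was below every control, and the means differed by -45.4%. In replicate 3, where the other genes stood nearer to the controls, its log2 difference from the siNT mean was -0.57. The log2 fold change was -0.89 (SE 0.13). The limma adjusted p was 0.0546 over all genes, 0.0436 with the replicate block and 0.0176 with voom, so the call depended on the model. Among the 3 genes outside the other groups, the nuclear lamina gene LMNB1 had a log2 fold change of -0.11. G2E3, a ubiquitin ligase named for its expression in G2 and M phase, was at 4.89, 5.23 and 5.07 RPKM with siNT and 4.52, 3.97 and 4.70 RPKM with siHKlincR1 (log2 fold change -0.20, limma adjusted p = 0.317).

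The table also lists 2 processed copies of DEPDC1. DEPDC1P1 (log2 fold change -0.91, limma adjusted p = 0.0482) and DEPDC1P2 (-0.99, limma adjusted p = 0.0992) were at 4.08 and 1.99 RPKM with siNT. Reads that fit both a gene and its copy could have been counted on either, so that the copies are no independent measurement. Altogether 36 such copies of the 56 genes are listed, of which 18 passed the filter. CKS1BP3 was at 36.2 RPKM with siNT, above CKS1B at 14.6 RPKM, and MAD2L1P1 at 15.1 RPKM, above MAD2L1 at 13.4 RPKM. The values of CKS1B and MAD2L1 are uncertain for that reason. The libraries were strand-specific, but whether the counting used strand is not given in the sources used here. A tested gene on the opposite strand overlaps 10 of the 56 genes, FOXM1, CDC25C and NCAPD2 among them.

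**Figure D4:**
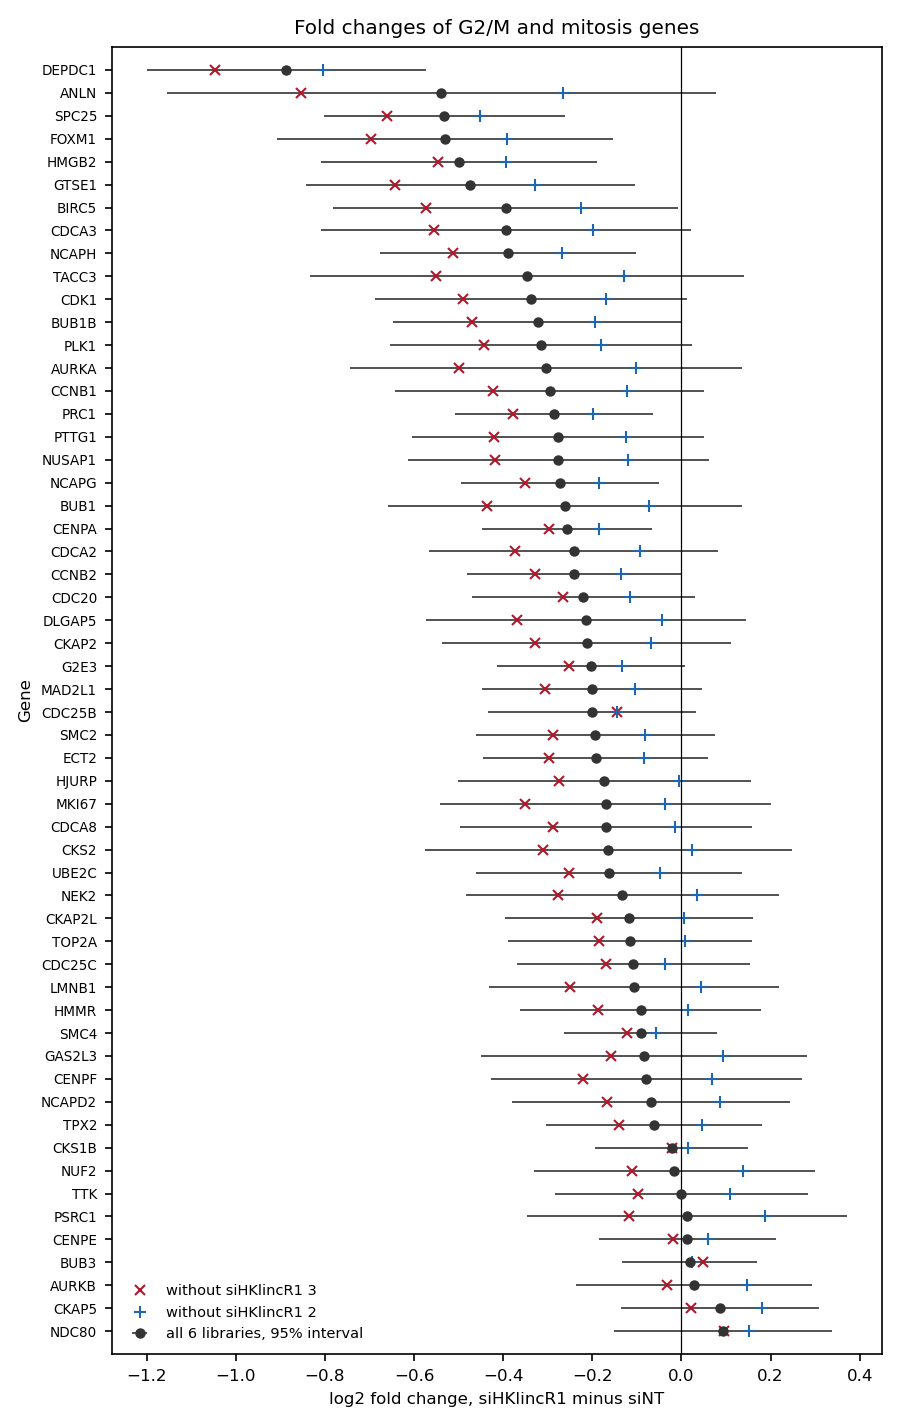
Log2 fold change (siHKlincR1 minus siNT) of each of the 56 genes with all 6 libraries (point, with the 95% interval from limma), without siHKlincR1 3 (cross) and without siHKlincR1 2 (plus). Leaving out replicate 3 moved the median from -0.20 to -0.30 and leaving out replicate 2 moved it to -0.08.

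The guide of an siRNA can lower mRNAs whose 3′ UTR pairs with its seed. The 7-base site that pairs with the seed of siHKlincR1_2, GTGTGCT, was searched on the sense strand of the 3′ UTR of each gene's canonical transcript on GRCh37. It was present once in 9 of the 56 genes (16.1%) and in 14.0% of 10764 genes tested that have an annotated 3′ UTR. The 9 are DEPDC1, CDC25B, NCAPG, CENPF, NCAPH, SPC25, BUB3, CCNB2 and HMGB2. Among them are 3 of the 5 genes with the lowest log2 fold changes, namely DEPDC1, SPC25 and HMGB2. DEPDC1, the lowest of all, is shown with the site in capitals, beside BUB3, which carries it and was not lower. The windows lie at chr1:68942341-68942369 (minus strand) and chr10:124926175-124926203 (plus strand).

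DEPDC1: gctatcatgatGTGTGCTaaaattttatt

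BUB3: ttcataaggagGTGTGCTgcttcccaagc

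By library, the 9 genes with the site had medians of -0.26, -0.45 and -0.14 in siHKlincR1 replicates 1, 2 and 3, and the 47 without it had -0.16, -0.44 and 0.02. In replicate 3, 7 of the 9 were below all siNT libraries, against 8 of the 47. Over all genes tested with an annotated 3′ UTR, the counts were 718 of the 1512 with the site and 2459 of the 9252 without it. All knockdown libraries were below all controls for 6 of the 9 genes with the site and 8 of the 47 without it. Over all such genes, the groups were separated in that direction for 29.9% of those with the site and 12.2% of those without it. Those with the site had medians of -0.08 in each of the 3 knockdown libraries, and those without it 0.004, -0.018 and 0.002. For the seed site of the other siRNA, siHKlincR1_1, the median log2 fold changes over all such genes were -0.004 with the site and -0.017 without it. The length of the 3′ UTR was not accounted for (median 762 bases over the 56 genes and 1366 over all such genes). The knockdown libraries come from 1 siRNA, and the part of the seed in the fold changes was not tested.

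The genes also share promoter elements that did not enter their choice. Many G2/M promoters are known to hold a CHR element, bound by the DREAM and MMB complexes, a short way downstream of CCAAT boxes bound by NF-Y. The CHR core TTTGAA and CCAAT were searched on both strands of RefSeq promoter windows (GRCh38.p14, 250 bases before to 50 after each start site), which matched 47 of the 56 genes. Neither motif contains the other, and matches that share a letter were not set apart. TTTGAA was in a window of 34 of the 47 (72.3%) and of 18.2% of all 27305 genes with a window. CCAAT was in 35 of the 47 (74.5%) against 39.7% of all genes, and both were in 26 (55.3%) against 7.26%. In the 38 genes with a single window, 26.3% held TTTGAA in the 25 bases that begin 50 bases before the start site, and 55.3% held CCAAT in the 25 bases that begin 75 bases before it. Over all 22114 genes with a single window the shares in these places were 1.56% and 7.88%. For CCAAT this was the highest bin over all genes too.

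**Figure D5:**
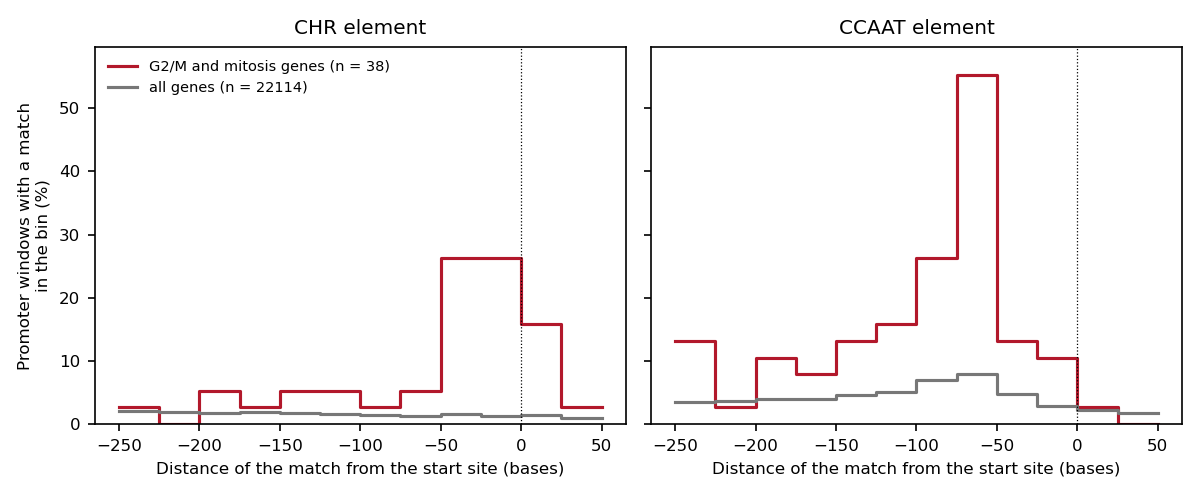
Share of promoter windows (%) with a CHR core (left) or a CCAAT box (right) in each 25-base bin, by the distance of the match from the start site, for the 38 G2/M and mitosis genes and the 22114 genes in all with 1 window. The peak of the mitosis genes for CCAAT is 55.3% in the bin from -75, and for CHR it is 26.3% in the bins from -50 and -25. Over all genes the shares there are 7.88% for CCAAT, and 1.56% and 1.21% for CHR.

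The promoters of CCNB2, CDK1 and DEPDC1 show the arrangement, and that of CCNB1 holds CCAAT boxes without TTTGAA. Only this core was searched, so a window without TTTGAA is not shown to lack a CHR element. Capitals mark TTTGAA and CCAAT or their reverse complements, and each sequence runs 5′ to 3′ on the strand of the gene. By exact match to GRCh37 they lie at chr15:59397095-59397394 (plus strand), chr10:62537986-62538285 (plus strand, the downstream of 2 start sites of CDK1), chr1:68962716-68963015 (minus strand) and chr5:68462727-68463026 (plus strand).

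CCNB2: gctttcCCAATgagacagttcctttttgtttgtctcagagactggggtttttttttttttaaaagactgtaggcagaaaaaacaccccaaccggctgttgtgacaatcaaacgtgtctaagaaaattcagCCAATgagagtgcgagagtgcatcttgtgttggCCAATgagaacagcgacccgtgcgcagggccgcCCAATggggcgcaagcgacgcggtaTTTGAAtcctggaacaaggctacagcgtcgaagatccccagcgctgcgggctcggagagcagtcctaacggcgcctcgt

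CDK1: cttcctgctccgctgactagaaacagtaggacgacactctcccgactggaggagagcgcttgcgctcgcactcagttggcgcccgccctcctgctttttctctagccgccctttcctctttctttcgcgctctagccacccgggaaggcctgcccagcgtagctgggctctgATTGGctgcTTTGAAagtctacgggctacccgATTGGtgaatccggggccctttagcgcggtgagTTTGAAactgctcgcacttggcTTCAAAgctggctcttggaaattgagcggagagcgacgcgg

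DEPDC1: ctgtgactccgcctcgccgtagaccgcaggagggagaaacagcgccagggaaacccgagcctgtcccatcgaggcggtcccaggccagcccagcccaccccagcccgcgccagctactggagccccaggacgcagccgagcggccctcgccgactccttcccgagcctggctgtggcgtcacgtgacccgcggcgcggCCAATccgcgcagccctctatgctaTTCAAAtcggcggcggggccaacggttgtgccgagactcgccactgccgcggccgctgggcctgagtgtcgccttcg

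CCNB1: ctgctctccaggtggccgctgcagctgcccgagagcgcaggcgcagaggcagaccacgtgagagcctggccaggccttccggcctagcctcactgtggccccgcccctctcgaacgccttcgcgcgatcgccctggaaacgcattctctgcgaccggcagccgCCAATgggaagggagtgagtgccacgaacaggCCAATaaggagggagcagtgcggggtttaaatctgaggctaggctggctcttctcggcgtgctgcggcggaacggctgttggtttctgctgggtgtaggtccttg

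In CCNB2 the TTTGAA begins 29 bases before the start site and the nearest CCAAT 54 bases before it. DEPDC1 has its CHR core on the opposite strand, from 27 bases before the start site, and its CCAAT from 52 bases before. Among the 47 genes with a promoter window, the median log2 fold change was -0.20 in the 34 genes with TTTGAA and -0.20 in the 13 without it, and in replicate 2 the medians were -0.43 and -0.47. A match of letters says nothing of whether a factor was bound.

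A further 77 genes of mitosis that are not among the 56 were listed by hand from textbook knowledge, and all were tested. Like the 56, they were chosen with earlier results of these data known, so they are no independent check of the pattern. Of these, 56 had a log2 fold change below 0 and 21 above (median -0.14), 15 were lower and 1 was higher at an unadjusted p under 0.05 (9.19% and 7.04% of all genes tested), and limma called 0 in either direction (0.356% and 0.00647% of all genes). The knockdown libraries were all lower for 18 genes (11.9% of all genes) and all higher for 1, ANAPC10 (10.1% of all genes). By library the medians were -0.15, -0.26 and -0.01 in replicates 1, 2 and 3, the same order as in the 56 genes. By function, 24 of 31 other kinetochore and checkpoint genes (median -0.18), 10 of 12 other regulators of entry and exit (-0.21), all 3 condensin II genes (-0.22) and 3 of 4 other cytokinesis genes (-0.19) were below 0. The subunits and partners of the anaphase-promoting complex (11 of 17, median -0.04) and the DREAM and MMB regulators (5 of 10, median -0.02) were nearer to 0.

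CCNF, an F-box protein that peaks in G2, was at 7.22, 7.03 and 8.34 RPKM with siNT and 4.83, 3.80 and 6.05 RPKM with siHKlincR1. The groups did not overlap (log2 fold change -0.63, SE 0.17, limma adjusted p = 0.182), and with the replicate block it was the 1 gene of the 77 called lower (limma adjusted p = 0.0471), where 0.809% of all genes tested were called lower. SPC24, the partner of SPC25 in the NDC80 complex, was at 15.9, 14.3 and 15.4 RPKM against 10.3, 6.82 and 14.9 RPKM (log2 fold change -0.58, limma adjusted p = 0.312). Here replicate 2 stood at a log2 difference of -1.15 from the siNT mean and replicate 3 was among the controls.

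TFDP1, the partner of E2F factors in DNA binding, was at 29.0, 27.1 and 33.2 RPKM with siNT and 20.3, 18.1 and 22.3 RPKM with siHKlincR1, all below the controls (log2 fold change -0.56, SE 0.11, limma adjusted p = 0.101, and 0.0175 with the block at a fold change under the threshold). MYBL2, the B-MYB subunit of the MMB complex, was at 42.0, 44.7 and 51.2 RPKM against 35.5, 32.1 and 44.1 RPKM (log2 fold change -0.31, limma adjusted p = 0.305), with replicate 3 among the controls. Without siHKlincR1 replicate 3, 5 of the 77 were called lower, against 2.03% of all genes tested. They were CCNF, SPC24, TFDP1, DSN1 and ZWINT, of which the last 2 are named here after their values were seen.

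In level, the 56 genes were well expressed in H460 cells. Their siNT means ran from 4.71 RPKM (CDCA3) to 139 ± 17.7 RPKM (CKS2; SD, n = 3), with a median of 26.6 RPKM against 5.05 RPKM over all genes tested. After CKS2 came CCNB1 at 73.8 ± 3.44 RPKM and TOP2A at 67.6 ± 4.76 RPKM, which did not differ beyond their spread.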

How the data were processed

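PolyA RNA of 3 siNT and 3 siHKlincR1 cultures of H460 cells was sequenced, 75-base paired-end per the labels. Per the labels and the study's methods, the authors used CASAVA 1.8.2 and counted reads on Ensembl v74 gene models of GRCh37 with featureCounts in Rsubread; the deposited values are RPKM per gene, not rounded. Aligner and strand setting are not given in the sources used here. The siRNA is siHKlincR1_2 by the study's methods. The titles of the knockdown samples read AC2siRNA, and the labels do not otherwise name which of the siRNAs was sequenced.

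The RPKM values gave back whole reads for 100% of 152380 values above 0 (tolerance 0.0001 reads), at library totals of 27752833, 30521000 and 24980280 reads (siNT) and 28457706, 28922217 and 29926414 reads (siHKlincR1). The file has 0 columns of samples other than these. Identifiers were matched to symbols with GENCODE v44 on GRCh37, in which 55538 were found. The marker PECAM1 was not matched, and 1 other marker and some sequence windows are not reported here.

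limma 3.58.1 in R 4.3.3 (lmFit, eBayes with trend) was run on log2(RPKM + 0.1) for the 15451 genes whose mean RPKM was 0.5 or more, with Benjamini-Hochberg adjustment over all of them, and fold changes are on that scale. A gene was called past 1.5-fold with an adjusted p below 0.05. The study tested counts, for which this test stands in. It called 55 genes lower and 1 higher over all genes tested, fewer than the study reported at the same limits. A gene not called here is therefore not shown to be uncalled in the study's test. With 3 libraries against 3 an exact permutation test cannot go below p = 0.10, so none is given for single genes. The voom fit used the reads worked back. The recovery of reads and the limma fit were tested on simulated data. In those data no single library shifted many genes together, so that setting was not covered.

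The deviations of same-numbered libraries from their group means correlated at 0.137 to 0.266 across genes (highest between different numbers, 0.113). The replicate numbers, from the labels, were used as a block in alternative fits only. The main fit had no block, so values given without mention of the block do not account for pairing. Blocked values are given where they change a call, and for some other genes. Over the G2/M and mitosis genes alone, the same-numbered correlations were 0.249, 0.204 and 0.406 for replicates 1, 2 and 3. That of siNT replicate 1 with siHKlincR1 replicate 2 was higher, at 0.413, and no other pair of different numbers was above 0.0177. In these genes the numbers therefore do not clearly pair the libraries.

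The members and lists were chosen with earlier results of these data known. Values in each library are given by a fixed rule: 15 core regulators, the 2 members of each function group with the largest absolute log2 fold change, members called with or without the block and members above 0. Of the 77 pathway genes, the 3 largest, any called, and MYBL2 are named, and others where stated. Alternatives changed the pseudocount, filter, scaling, variance trend, thresholds and block, left out each library, or used voom; voom with the block was added after the data were seen. 3′ UTRs were those of canonical transcripts with at least 30 bases.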

Additional observations from a re-analysis of the deposited data

How the results depend on the processing

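The number of the 56 genes called lower was 0 with all libraries. It was 1 (DEPDC1) with a filter of 1 RPKM, with the replicate block, with voom and with voom and the block, the last added after the data were seen, and 0 to 5 when single libraries were left out, 5 being without siHKlincR1 replicate 3. The number of the 77 pathway genes called lower went from 0 to 1 (CCNF) with the block and with voom and the block, and to 0 to 5 when single libraries were left out, again 5 without siHKlincR1 replicate 3. The replicate block changed no other call. Of the 56 log2 fold changes, 37 were below 0 and 2 above 0 in all 15 alternative fits, and 17 changed sign when single libraries were left out, 12 of them without siHKlincR1 replicate 2. These 17, all uncalled, ranged over the left-out libraries from -0.032 to 0.15 for AURKB, -0.016 to 0.049 for BUB3, -0.035 to 0.074 for CENPE, -0.22 to 0.069 for CENPF, -0.19 to 0.0068 for CKAP2L, -0.060 to 0.015 for CKS1B, -0.31 to 0.024 for CKS2, -0.19 to 0.093 for GAS2L3, -0.19 to 0.014 for HMMR, -0.25 to 0.043 for LMNB1, -0.17 to 0.086 for NCAPD2, -0.28 to 0.035 for NEK2, -0.11 to 0.14 for NUF2, -0.12 to 0.19 for PSRC1, -0.18 to 0.0086 for TOP2A, -0.14 to 0.046 for TPX2 and -0.098 to 0.11 for TTK. TTK, near 0, was also at -3.72e-05 with a pseudocount of 0.01, -0.0020 with voom and -0.0015 with voom and the block. The median log2 fold change of the 56 genes, the library medians and HKlincR1 kept their direction or moved by less than the spread between libraries. For the median log2 fold change that rule is weak. The SD of the siHKlincR1 library medians was 0.231, larger in size than the median itself (-0.201). The median was -0.297 without siHKlincR1 replicate 3 and -0.0768 without replicate 2. Depth was not short for any of the 56 genes, which had at least 364 reads in every library.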
